A study of Rattus norvegicus with 15 samples.

Results

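MiR-126 and miR-126* are the 2 mature strands cut from 1 hairpin precursor. They were taken from the 350 miRNAs of the array by name, ignoring the rat species prefix, and both were found. Of the 350 miRNAs, 134 were detected on at least 3 arrays and tested, and both strands are among them. The study measured rat liver with 15 single-colour (Cy3) miRNA arrays, each carrying RNA pooled from 4 rats. Liver of rats on a chronic ethanol diet (EtOH) was compared with liver of rats pair-fed a carbohydrate control diet (CHO), before a partial hepatectomy (PHx, surgical removal of part of the liver) and 1, 6, 12 or 24 h after it. There were 3 EtOH and 4 CHO arrays before PHx, and 1 array per diet at each of the 4 times after it. By the animal identifiers in the labels there are 8 pools, and 7 of them were measured both before and after surgery in the same 4 rats. The array before PHx of the EtOH 24 h pool was not analysed here. Within each diet the 1 h pool and the 6 h pool have 1 rat in common. No group is unoperated at 1 to 24 h, so time after surgery and surgery itself are not separated. The sources used here do not give the rats' strain, sex or age.

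The miR-126 hairpin lies in an intron of Egfl7, a gene of endothelial cells that encodes a secreted protein of the vessel wall, and its strands are the best known miRNA marks of endothelium. MiR-126 (the 3p strand) lowers Spred1 and Pik3r2, inhibitors of signalling downstream of VEGF, and is needed for vessel integrity. The star strand (the 5p strand) is the less abundant product in most tissues and has targets of its own, among them Dlk1, a Notch ligand-like protein that holds back endothelial proliferation. In liver these strands stand chiefly for the sinusoidal and vascular endothelium, which lines the blood spaces between plates of hepatocytes and grows back after the hepatocytes following partial hepatectomy. In whole liver RNA, fewer endothelial cells and less miR-126 per cell cannot be told apart.

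The sequences are shown because the strands pair with each other in the hairpin yet carry different seeds, the stretch (bases 2 to 8, in capitals) by which a miRNA recognises its targets. Both are printed 5′ to 3′ from RefSeq (rat build GRCr8), where they are called rno-miR-126a-3p and rno-miR-126a-5p.
miR-126: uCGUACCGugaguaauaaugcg
miR-126*: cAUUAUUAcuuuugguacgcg
MiR-126 lies at chr3:29813219-29813240 and miR-126* at chr3:29813182-29813202, both on the plus strand, and the hairpin lies within Egfl7 on the same strand. MiR-126 has 22 bases with a GC content of 45.5%, and miR-126* has 21 bases with 38.1%. None of the other mature rat miRNAs among the 724 in that table shares either seed, so neither strand has a seed family there.

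Values are scaled signals, that is, background-subtracted spot intensities brought to a common array brightness (the 75th percentile of probes detected on all arrays). Probes differ in how brightly they report, so a level is compared between arrays and never between the strands. MiR-126 was read by 10 spots of its brighter probe on each array and miR-126* by 20 spots of its only probe. The scanner software counted at least 9 of the miR-126 spots and at least 16 of the miR-126* spots as well above background on every array. The raw mean signal of miR-126* was 18.5 to 53.1 per array, about the size of the local background of 21.5 to 26.5 that had been subtracted, whereas that of miR-126 was 663 to 1533. The tissue label was checked with miR-122, the main miRNA of hepatocytes, which was detected on all 15 arrays at a scaled signal of 33467 to 44009. Between 108 and 131 miRNAs were detected per array, and the 75th percentile before scaling ranged from 236 to 516.

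One array stood apart. EtOH before PHx replicate 3, the pool later sampled at 12 h, had a dim zone in the middle of its spot field. On this array 14.3% of the spots of detected probes (223 of 1560) read under a share of 0.5 of their probe's median, against at most 4 spots on any other array. The zone reached from about row 50 to row 137 and from column 24 to column 54 of a field of 192 rows and 82 columns. Spots of both strands lay in it. The coefficient of variation between spots was 31.5% for the brighter miR-126 probe there and 49.8% for miR-126*, against at most 5.96% and 12.3% on the other 14 arrays. Of the 20 spots of miR-126* on this array, 4 read under the 0.5 share, and the lowest was at -1.27 in raw signal against a median of 21.5. Without this array 34 miRNAs were called for diet before PHx in place of 21, and 33 for diet after PHx in place of 10.

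**Figure D1:**
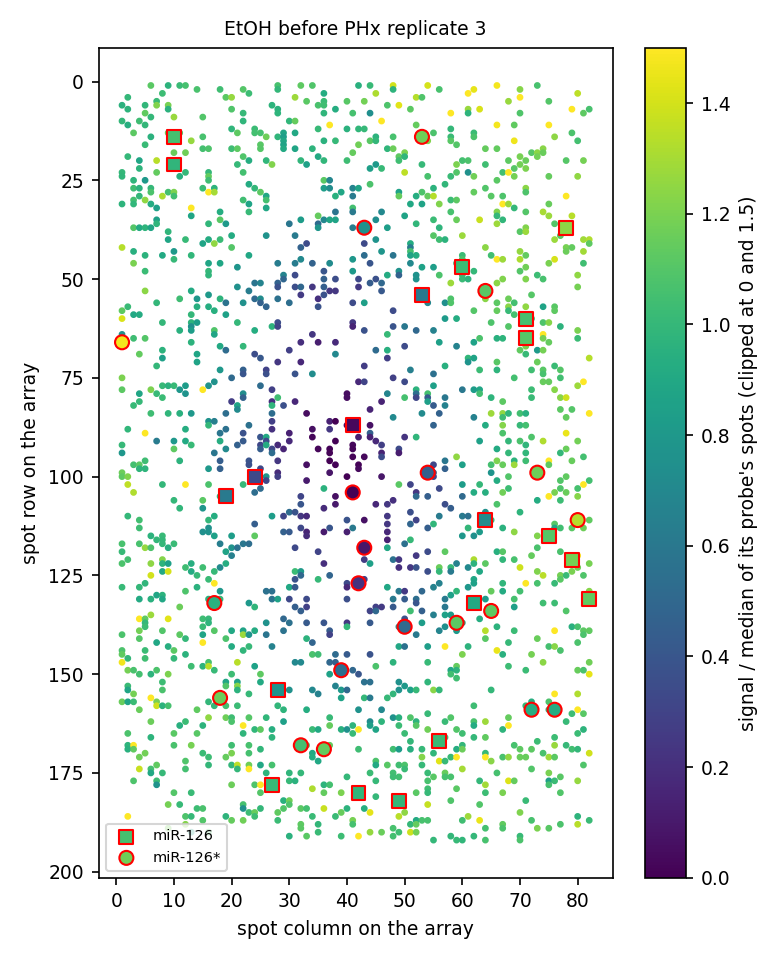
Map of EtOH before PHx replicate 3, with spot column on the x axis and spot row on the y axis. Colour is each spot's signal over the median of its probe's spots on that array, clipped at 0 and 1.5, squares are the miR-126 spots of both probes, circles the 20 miR-126* spots, small points the other detected probes; the dark patch in the centre holds most of the 223 spots under 0.5.

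MiR-126 varied little over the 15 arrays, between 1005 and 1263 in scaled signal. Before PHx the EtOH arrays read 1040, 1034 and 1103 (1059 ± 38.0, SD, n = 3), and the CHO arrays read 1193, 1171, 1263 and 1170 (1199 ± 43.8, SD, n = 4). All 3 EtOH arrays lay below all 4 CHO arrays in this brighter probe, whereas the groups overlapped in the dimmer probe. After PHx the EtOH arrays read 1048 at 1 h, 1005 at 6 h, 1178 at 12 h and 1192 at 24 h. The CHO arrays read 1248 at 1 h, 1182 at 6 h, 1137 at 12 h and 1186 at 24 h. EtOH was the lower of the diets at 1 and 6 h, above CHO at 12 h, and at nearly the CHO value at 24 h.

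MiR-126* had a wider relative spread, from 27.5 to 45.2 in scaled signal. Before PHx the EtOH arrays read 38.3, 30.1 and 30.8 (33.1 ± 4.51, SD, n = 3), and the CHO arrays read 39.8, 38.4, 36.4 and 40.5 (38.8 ± 1.83, SD, n = 4). The groups overlapped, since the highest EtOH array lay above the lowest CHO array. After PHx the EtOH arrays read 34.6 at 1 h, 27.5 at 6 h, 36.8 at 12 h and 43.7 at 24 h, and the CHO arrays read 45.2 at 1 h, 36.0 at 6 h, 35.0 at 12 h and 39.0 at 24 h. EtOH was again lower at 1 and 6 h and higher at 12 and 24 h.

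**Figure D2:**
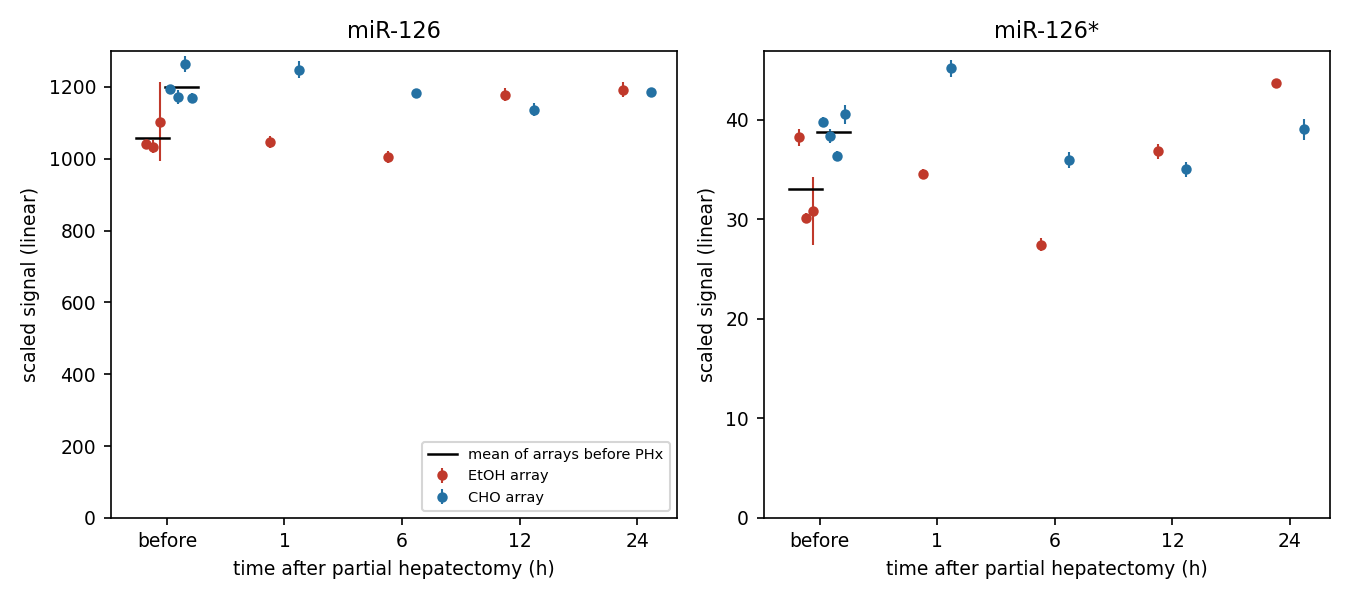
Scaled signal (linear axis from 0) of miR-126 (left) and miR-126* (right) against time after partial hepatectomy, with EtOH arrays in red and CHO arrays in blue. Points are arrays, bars the standard error over the spots of the probe, and black lines the mean of the arrays before PHx; miR-126 stays between 1005 and 1263 throughout, and miR-126* between 27.5 and 45.2.

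Ordered by mean level over the 10 conditions, miR-126 was highest in CHO at 1 h, followed by CHO before PHx, EtOH at 24 h, CHO at 24 h, CHO at 6 h, EtOH at 12 h, CHO at 12 h, EtOH before PHx, EtOH at 1 h and EtOH at 6 h. The highest condition was 1.24-fold the lowest. The spread between pools (SD on the log2 scale) was 0.051 in EtOH and 0.052 in CHO before PHx. Of the 9 steps between neighbours in this order, 3 were larger than the larger of these SDs, and the largest, 0.10 between CHO at 12 h and EtOH before PHx, divides the order. MiR-126* was also highest in CHO at 1 h and lowest in EtOH at 6 h, with a 1.65-fold range. Only 1 of its 9 steps was larger than the larger SD of 0.19, the one of 0.27 between EtOH before PHx and EtOH at 6 h.

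The comparison of diets before surgery asked how the liver stood after chronic ethanol feeding alone. MiR-126 was at a lower mean in EtOH than in CHO by 0.18 on the log2 scale (difference -0.18, SE 0.076, 95% interval -0.35 to -0.01), and this did not pass in limma after Benjamini-Hochberg adjustment over the 134 miRNAs (adjusted p 0.144). MiR-126* differed by -0.24 (SE 0.120, 95% interval -0.50 to 0.03, limma adjusted p 0.232). Neither strand was called, where 15.7% of tested miRNAs were (21 in all, 14 without EtOH before PHx replicate 2 and 34 without replicate 3). Of all tested miRNAs, 57 had a larger diet difference than miR-126 in size and 44 a larger one than miR-126*, and the median over all was -0.08. The separation of the miR-126 groups in its brighter probe was shared by 25.4% of tested miRNAs in either direction and by 21.6% with EtOH below CHO. Leaving out each array in turn left both differences uncalled, between -0.21 and -0.15 for miR-126 and between -0.35 and -0.17 for miR-126*. Without scaling both were called (-0.71 and -0.77), where the median of all tested miRNAs was -0.53, and with normexp background correction and 1 value per array miR-126* had the opposite sign (0.18, not called).

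After surgery, with 1 diet difference fitted over the 4 times, miR-126 differed by -0.11 between EtOH and CHO (SE 0.071, 95% interval -0.26 to 0.05, limma adjusted p 0.329) and miR-126* by -0.14 (SE 0.111, 95% interval -0.38 to 0.11, limma adjusted p 0.465). Neither was called, against 7.46% of tested miRNAs. This background of 10 calls changed with single arrays: leaving out either diet's array at 1 h or at 6 h gave 1 call, leaving out CHO before PHx replicate 1 or 2 gave 2, and leaving out EtOH before PHx replicate 3 gave 33. The diet difference after PHx minus that before it was 0.07 for miR-126 (95% interval -0.16 to 0.30, limma adjusted p 0.911) and 0.10 for miR-126* (95% interval -0.26 to 0.46, limma adjusted p 0.915), and 0.0% of miRNAs passed that test (9 of 134 at an unadjusted p under 0.05). With the 75th percentile taken over all probes the diet difference after PHx had the opposite sign for both strands (0.14 and 0.12, not called), and with it the median of all tested miRNAs stood at 0.19 in place of -0.05. Relative to that median miR-126 then lay at -0.05, against -0.06 in the main scaling.

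The single times were read from a fit of 10 separate conditions, in which the lone arrays after PHx are assumed to vary like those before it. For miR-126 the diet difference was -0.25 at 1 h, -0.23 at 6 h, 0.05 at 12 h and 0.01 at 24 h. For miR-126* it was -0.39 at 1 h, -0.39 at 6 h, 0.07 at 12 h and 0.16 at 24 h. So both strands had a lower EtOH value at the early times and a like or higher one at the late times. None of these passed in limma (adjusted p 0.337 at the lowest), where 0.746% of miRNAs passed at 1 h, 0.0% at 6 h (18 at an unadjusted p under 0.05), 3.73% at 12 h and 0.0% at 24 h (7 at an unadjusted p under 0.05).

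The early and late pools were also hybridised on different slides, by the slide identifiers in the file headers. Slide 1 holds every array of the 1 h and 6 h pools, before and after PHx, and slide 2 every array of the 12 h and 24 h pools. Slide and the set of animals therefore cannot be told apart, but each slide holds both diets. On slide 1 miR-126 read 1005 to 1048 on the 4 EtOH arrays (1032 ± 18.7, SD) and 1171 to 1248 on the 4 CHO arrays (1199 ± 33.8, SD), with no overlap. The diets also did not overlap there in 5 of 6 other ways of scaling or background correction, and they overlapped with the 75th percentile over all probes (1035 to 1192 in EtOH and 1019 to 1299 in CHO). On slide 2 it read 1103 to 1192 on the 3 EtOH arrays (1158 ± 48.2, SD) and 1137 to 1263 on the 4 CHO arrays (1189 ± 53.6, SD), and the diets overlapped. The 4 arrays of a diet on slide 1 are 2 pools, each measured before and after surgery, and the pools have a rat in common. Their mean levels of miR-126, averaged on the log2 scale, were 1044 and 1019 in the EtOH 1 h and 6 h pools and 1220 and 1177 in the CHO ones. The lower EtOH values of slide 1 were thus present before surgery (1040 and 1034 against 1193 and 1171) as well as at 1 and 6 h. Of all tested miRNAs, 33.6% did not overlap between diets on slide 1 (21.6% with EtOH below CHO) and 9.7% on slide 2. MiR-126* read 27.5 to 38.3 in EtOH against 36.0 to 45.2 in CHO on slide 1, and 30.8 to 43.7 against 35.0 to 40.5 on slide 2, overlapping on both.

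**Figure D3:**
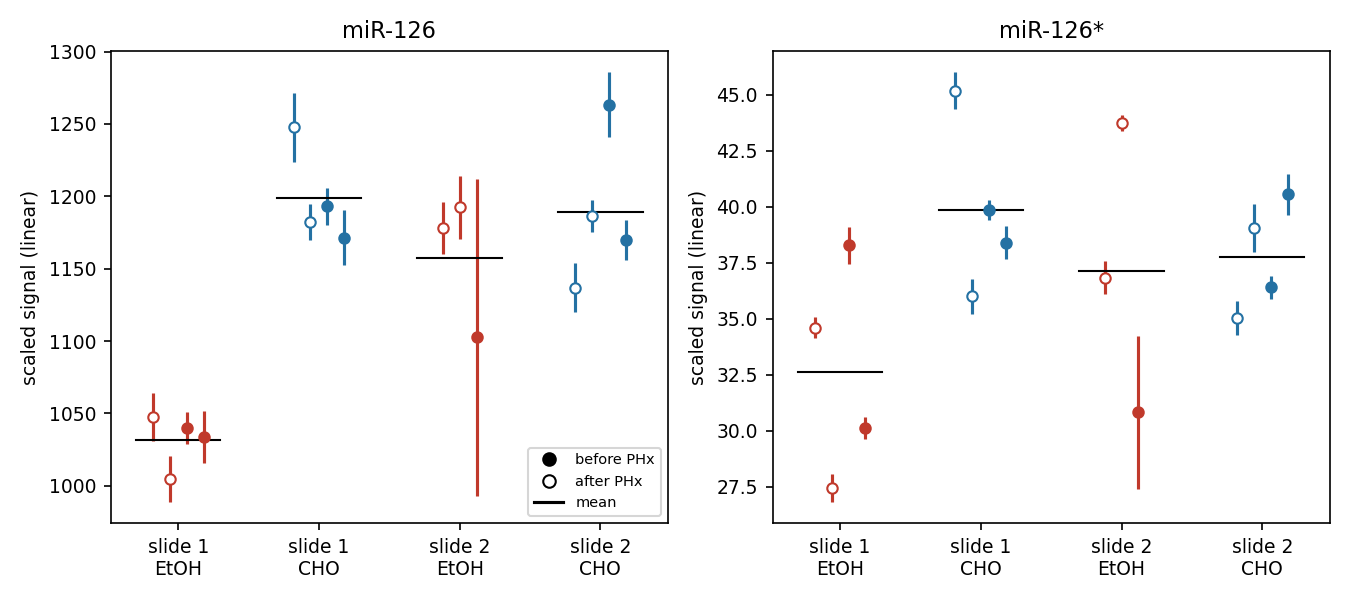
Scaled signal (linear axis, not from 0) of miR-126 (left) and miR-126* (right) by slide and diet, with filled points for arrays before PHx and open points for arrays after it. Bars are the standard error over spots and black lines the group mean; for miR-126 on slide 1 the highest EtOH array (1048) lies below the lowest CHO array (1171), and on slide 2 the diets overlap.

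A fit with a diet difference on each slide, chosen after these values had been seen, gave -0.22 for miR-126 on slide 1 (SE 0.056, 95% interval -0.34 to -0.09, limma adjusted p 0.0204). MiR-126 was thereby called lower in EtOH on slide 1, as were 17.9% of tested miRNAs, with 29.1% called in either direction. Of 27 alternatives, the call held in 16 and was lost in 11. It was lost in 5 of 6 other ways of scaling or background correction, and kept with the authors' values. It was also lost without the EtOH array at 1 h or at 6 h, without the CHO array at 1 h or at 6 h, and without CHO before PHx replicate 1 (-0.23 to -0.20 over all 15 omissions, limma adjusted p 0.00711 to 0.0838). With 1 mean per pool in place of single arrays, so 2 pools against 2, the difference was again -0.22 (SE 0.073, 95% interval -0.40 to -0.03) and was not called (limma adjusted p 0.0867, with 14.9% of miRNAs called). With the pool as a random block it was called (limma adjusted p 0.00295, with 51.5% called), but the correlation between arrays of a pool was estimated below 0, at -0.37, which narrows the error. With the 75th percentile over all probes the same difference was -0.01 (limma adjusted p 0.975), while the median of all tested miRNAs moved from -0.05 to 0.13, so that relative to the median miR-126 lay at -0.17 in the main scaling and at -0.14 in the other. With quantile normalization it was -0.18 and not called (limma adjusted p 0.103). MiR-126* differed by -0.30 on slide 1 (SE 0.104, 95% interval -0.53 to -0.06, limma adjusted p 0.0561), and was called when EtOH before PHx replicate 3, which is on slide 2, was left out (limma adjusted p 0.0216, with 39.6% of miRNAs called). With 1 mean per pool it was not called (limma adjusted p 0.0740), and with the random block it was (limma adjusted p 0.0120). On slide 2 the differences were -0.04 for miR-126 (95% interval -0.18 to 0.10) and -0.06 for miR-126* (95% interval -0.31 to 0.20), and neither was called, against 5.22% of tested miRNAs.

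The difference between the slides was itself not called. It was -0.18 for miR-126 (95% interval -0.36 to 0.01, limma adjusted p 0.308) and -0.24 for miR-126* (95% interval -0.58 to 0.10, limma adjusted p 0.450), and 0.0% of miRNAs passed (21 at an unadjusted p under 0.05). Without EtOH before PHx replicate 3 it was -0.25 and -0.41, with a limma adjusted p of 0.219 for both, and again 0.0% passed (23 at an unadjusted p under 0.05). The fits on single arrays count the arrays before and after surgery of a pool as independent, so their p-values can be too small. Within slide 1 alone, with separate differences before and after surgery, miR-126 differed by -0.24 after PHx (limma adjusted p 0.0464, called, with 19.4% of miRNAs called) and by -0.19 before PHx (limma adjusted p 0.0680, not called, with 27.6% called). Each of these sets 2 arrays against 2. With the pool as a random block within slide 1 (estimated correlation 0.19) the adjusted p in limma was 0.0437 after and 0.0685 before PHx. Before scaling, array brightness on slide 1 (75th percentile) was 288 to 410 in EtOH and 373 to 460 in CHO, and its part in the result was not tested.

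The second, dimmer probe of miR-126 read 562 to 776 over the arrays. Its diet differences were -0.15 before PHx and -0.24 on slide 1, beside -0.18 and -0.22 for the brighter probe. On slide 1 its highest EtOH array, at 601, also lay below its lowest CHO array, at 659. Before PHx, over both slides, its groups overlapped, unlike those of the brighter probe. Its EtOH arrays then read 580, 601 and 746, the last on replicate 3 with the dim zone. Its CHO arrays before PHx read 683, 659, 776 and 715. Across the 15 arrays the probes had a Pearson correlation of 0.860, a description, since they share the same RNA and the same scaling. In the authors' deposited table, on its log2 scale, miR-126 stood at 9.91 to 10.12 on the 4 EtOH arrays of slide 1 and at 10.25 on all 4 CHO arrays. On slide 2 the authors' deposited table gave 10.33 on all 3 EtOH arrays and 10.12 to 10.33 on the CHO arrays. Values recur exactly in that table, with 233 distinct values among 5250, so its spread between arrays is coarser than that of the scanner signals.

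The comparison of times with the state before surgery asked whether the strands moved as the liver regrew. Averaged over both diets, miR-126 differed from before PHx by 0.02 at 1 h, -0.05 at 6 h, 0.04 at 12 h and 0.08 at 24 h, each with an SE of 0.080. The upper end of its 95% interval was highest at 24 h, where the interval ran from -0.10 to 0.25. MiR-126* differed by 0.15 at 1 h, -0.18 at 6 h, 0.01 at 12 h and 0.21 at 24 h, each with an SE of 0.126. Over the 4 times together miR-126 differed by 0.02 (95% interval -0.09 to 0.14) and miR-126* by 0.05 (95% interval -0.13 to 0.23). None of these was called in limma (adjusted p between 0.364 and 0.980). Among all tested miRNAs 0.0% were called at 1 h (4 at an unadjusted p under 0.05), 4.48% at 6 h, 5.97% at 12 h, 13.4% at 24 h and 6.72% for the mean over times. The smallest change called at 24 h was 0.30 in size. Slide 1 holds the arrays of 1 and 6 h and slide 2 those of 12 and 24 h, whereas both slides hold arrays before PHx. The fit of these differences has no term for slide. Fitted within each slide, miR-126 differed by 0.05 at 1 h, -0.02 at 6 h, -0.00072 at 12 h and 0.04 at 24 h. MiR-126* then differed by 0.12, -0.21, 0.06 and 0.26 at those times.

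**Figure D4:**
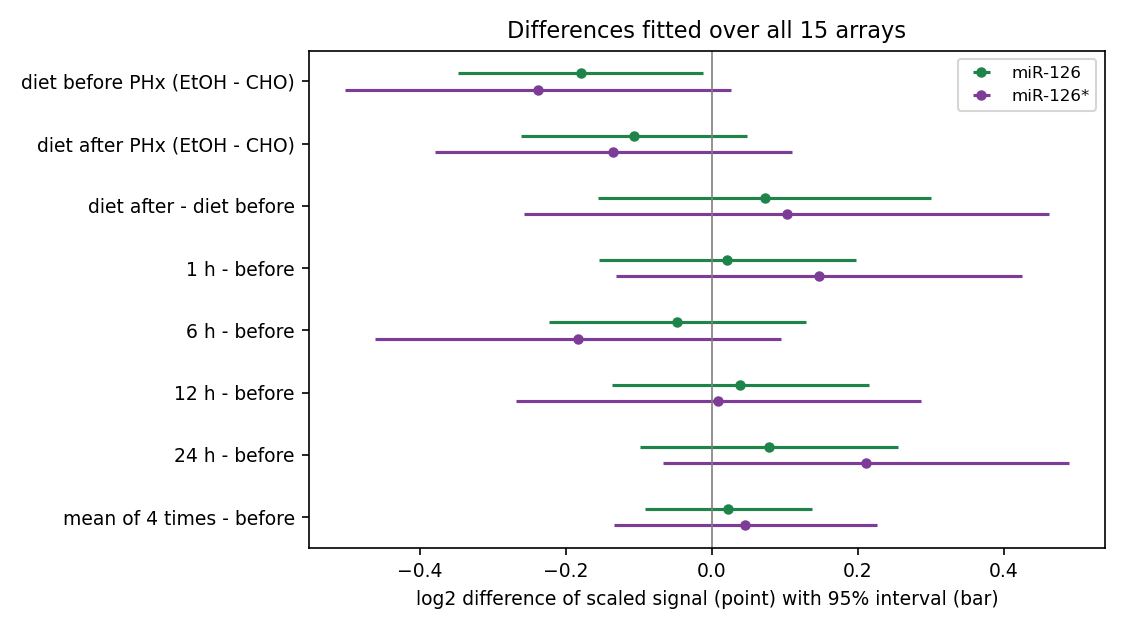
Log2 differences of scaled signal (x axis) in the fit over all 15 arrays for miR-126 (green) and miR-126* (purple), 1 line per comparison. Points are the fitted differences and bars their 95% intervals without adjustment for multiple tests; the interval for miR-126 before PHx (-0.35 to -0.01) lies below 0, the others cross it, and none was called after adjustment.

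Within a diet the largest difference was in EtOH at 24 h, where miR-126* lay 0.41 above EtOH before PHx (95% interval 0.06 to 0.76) and miR-126 lay 0.17 above it (95% interval -0.01 to 0.36). Neither passed in limma (adjusted p 0.208 and 0.335, with 7.46% of tested miRNAs called). The array before surgery of the EtOH 24 h pool was not analysed here, so this sets that pool against the other 3. Of the 3 EtOH arrays before PHx, replicates 1 and 2 are on slide 1. Replicate 3, the array with the dim zone, is on slide 2, as is EtOH at 24 h. CHO at 24 h lay at 0.01 for miR-126* and at -0.02 for miR-126 from CHO before PHx (limma adjusted p 1 for both, with 5.22% of miRNAs called).

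The same rats before and after surgery could be compared in 7 pools. MiR-126 was higher after surgery in 5 of them, by 0.01 in EtOH at 1 h, 0.10 in EtOH at 12 h, 0.06 in CHO at 1 h, 0.01 in CHO at 6 h and 0.02 in CHO at 24 h. It was lower by 0.04 in EtOH at 6 h (change -0.04) and by 0.15 in CHO at 12 h (change -0.15). MiR-126* was higher in 2 pools, by 0.26 in EtOH at 12 h and by 0.18 in CHO at 1 h. In the other 5 pools its change ranged from -0.15 to -0.05. The strands moved in opposite directions in 3 pools, EtOH at 1 h and CHO at 6 and 24 h, with changes of at most 0.15 in size. With the pool as a block the mean change over times was 0.01 for miR-126 and -0.01 for miR-126*, neither called. The largest of these pool changes, in EtOH at 12 h for miR-126*, starts from the array with the dim zone.

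Both strands are cut from 1 precursor, and array scaling cancels in their ratio within an array. The level of the ratio depends on how brightly each probe reports and was not interpreted, but its differences between arrays were compared. The log2 ratio of miR-126 to miR-126* was 4.76, 5.10 and 5.16 on the EtOH arrays before PHx (5.01 ± 0.21, SD, n = 3) and 4.90, 4.93, 5.12 and 4.85 on the CHO arrays (4.95 ± 0.12, SD, n = 4). The groups overlapped. After PHx it was 4.92, 5.19, 4.999 and 4.77 in EtOH and 4.79, 5.04, 5.02 and 4.93 in CHO at 1, 6, 12 and 24 h. At 6 h the ratio was the highest of the 4 times in each diet.

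The diets differed in the ratio by 0.06 before PHx (exact permutation test, two-sided, p = 0.686, smallest possible 0.0571), and by -0.018 without EtOH before PHx replicate 3. After PHx they differed by 0.03 on average over the 4 times (exact sign-flip test, two-sided, p = 1, smallest possible 0.125). EtOH was above CHO at 1 h (0.13) and 6 h (0.16) and below it at 12 h (-0.02) and 24 h (-0.16). In the 7 pools the ratio after surgery minus that before was 0.01 on average (exact sign-flip test, two-sided, p = 0.906, smallest possible 0.0156), positive in 4 pools and negative in 3. The Benjamini-Hochberg adjusted value over these 3 tests was 1 for each. The first 2 designs cannot reach 0.05. Over all 15 arrays the SD of the log2 ratio was 0.14.

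**Figure D5:**
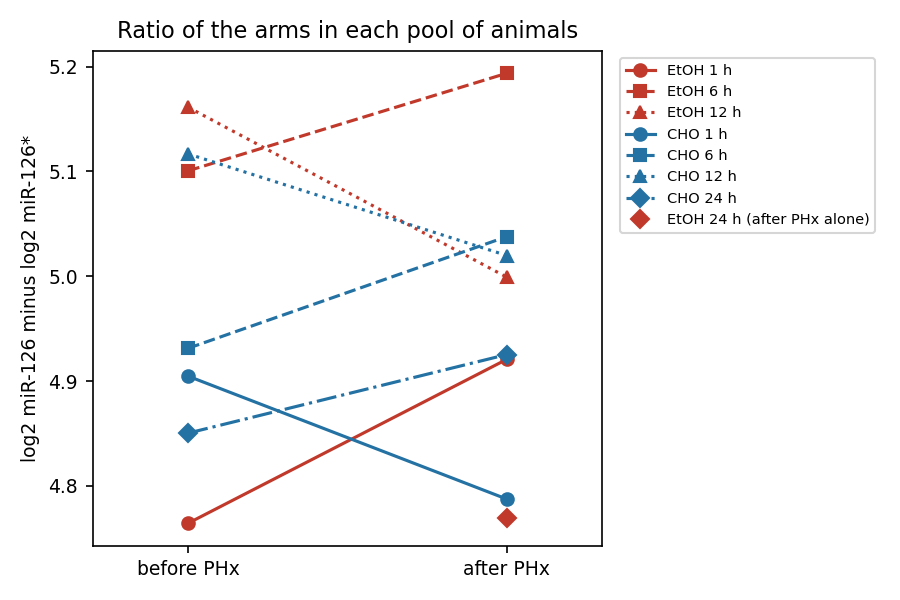
Log2 of miR-126 minus log2 of miR-126* (y axis) before and after partial hepatectomy, with a line for each of the 7 pools measured at both and a lone diamond for the EtOH 24 h pool. EtOH is red and CHO blue; the lines rise in 4 pools and fall in 3, and all values lie between 4.76 and 5.19.

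Over the 15 arrays miR-126 and miR-126* had a Pearson correlation of 0.731 and a Spearman correlation of 0.700 in log2 scaled signal, which put miR-126* at rank 10 in likeness to miR-126, and miR-126 at rank 6 in likeness to miR-126*, among 133 other miRNAs each. These correlations are descriptions, since arrays share scaling, slides and animals, and no test was made. Without the 2 arrays farthest from the median of miR-126 the correlation of the strands was 0.497. It was 0.817 on slide 1 and 0.522 on slide 2, and the dimmer miR-126 probe gave 0.474 with miR-126*. The median correlation with all others was 0.147 for miR-126 and -0.02 for miR-126*.

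The 5 miRNAs most like miR-126 were miR-450a (r 0.813), miR-10b (0.811), miR-322 (0.800), miR-532-5p (0.758) and miR-10a-5p (0.753). MiR-322 and miR-450a come from 1 cluster on the X chromosome, and miR-10a and miR-10b are hosted in the Hox gene clusters. All 5 were called lower in EtOH on slide 1, with differences of -0.53 for miR-450a, -0.42 for miR-322, -0.37 for miR-532-5p, -0.37 for miR-10a-5p and -0.31 for miR-10b (limma adjusted p 0.00162 to 0.0142). They were picked for their likeness over these same arrays, so this count is no independent result. Over all tested miRNAs 17.9% were called lower on slide 1. Of 6 other ways of scaling or background correction, the call was lost in 6 for miR-450a, miR-10b and miR-532-5p, in 5 for miR-322 and in 4 for miR-10a-5p. After normexp with 1 background value for each array, miR-450a (0.01), miR-10b (0.02) and miR-532-5p (0.11) had the opposite sign. The 5 most like miR-126* were miR-29b (r 0.835), miR-532-5p (0.782), miR-140 (0.779), miR-142-3p (0.771) and miR-19b (0.769). MiR-29b is known for lowering collagens and other matrix genes, and miR-142-3p is a mark of blood cells. Of these 5, miR-532-5p (-0.37) and miR-19b (-0.70) were called lower in EtOH on slide 1, and miR-29b (-0.19), miR-140 (-0.10) and miR-142-3p (-0.39) were not. This count too stands beside 17.9% of all tested miRNAs, and these 5 were likewise picked over the same arrays. The miR-19b call was lost in 3 of those 6 ways. The order depended on the arrays used. Without EtOH before PHx replicate 3, miR-322 was the closest to miR-126 (r 0.853), and miR-29b remained the closest to miR-126* (r 0.817).

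MiR-126 and its star strand are the only miRNAs of the array set down as endothelium-defining, so a further list was read beside them: 14 miRNAs linked to endothelium that other cells also make. Of these, 11 were tested, and miR-181b, miR-218 and miR-222 were detected on too few arrays. Before PHx 0 were called higher and 2 lower in EtOH, miR-10a-5p (-0.33) and miR-221 (-0.34, limma adjusted p 0.0152 and 0.0167), where 2.99% of all tested miRNAs were called higher and 12.7% lower, and the median of the list was -0.15 against -0.08 over all. The difference largest in size went the other way, 0.45 for miR-320, which was not called (limma adjusted p 0.0623). Each of these 2 calls was lost in 4 of 6 other ways of scaling or background correction, and miR-221 had the opposite sign (0.20) after normexp with 1 background value for each array. After PHx only miR-92a, of the miR-17-92 cluster, was called among the 11, at -0.38 (limma adjusted p 0.0318), where 4.48% of all tested miRNAs were called lower, with a list median of -0.08 against -0.05. It was not called in any of the 6 other ways (limma adjusted p 0.0760 to 0.418). On slide 1, 4 of the 11 were called lower and 0 higher, miR-10a-5p, miR-10b, miR-27a and miR-92a, against 17.9% lower and 11.2% higher of all tested miRNAs, with a list median of -0.06 against -0.05. Their differences were -0.37, -0.31, -0.29 and -0.32. The summed scaled signal of all 14 on slide 1 was 7067 to 7869 in EtOH and 6946 to 7464 in CHO, and overlapped. Of the 6 other ways, the call was lost in 6 for miR-10b, with a sign change in both normexp forms, in 5 for miR-27a and in 4 each for miR-10a-5p and miR-92a. Leaving out single arrays, the call was lost without any of 7 arrays for miR-92a, 6 for miR-27a and 2 for miR-10b.

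With time after surgery, miR-221, which lowers the cell cycle inhibitors p27 and p57, was the one member of that list called. It rose by 0.41 at 6 h, 0.46 at 12 h and 0.50 at 24 h (limma adjusted p 0.0188, 0.00491 and 0.00229), while at 1 h its difference of 0.28 was not called. It was not called at 6 or 12 h in any of 6 other ways of scaling or background correction, nor at 24 h in 3 of them, and with the planned normexp correction its 12 h difference was -0.07. The strands of miR-126 had differences of -0.18 to 0.21 at those times. The list medians were 0.08 at 6 h, 0.10 at 12 h and -0.02 at 24 h, against 0.07, 0.06 and 0.02 over all tested miRNAs. Beside this 1 call among the 11 tested members, 4.48% of all tested miRNAs were called at 6 h, 5.97% at 12 h and 13.4% at 24 h.

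Lists of other liver cells were set beside these. Among hepatocyte miRNAs (4 on the array and all tested) none was called for diet before or after PHx or at any time after surgery, with a median of 0.10 for diet before PHx. On slide 1 their summed scaled signal was 40717 to 46409 in EtOH and 36684 to 39642 in CHO, with no overlap. With quantile normalization, no scaling or the authors' values the sums overlapped. Most of each sum was miR-122, at 33467 to 44009 over the 15 arrays. MiR-148b-3p was called higher on slide 1, as were 11.2% of all tested miRNAs. That call was lost in 3 of the 6 other ways, and without any of the 8 arrays of slide 1. Stellate and mesenchymal miRNAs (5 of 5 tested) had a median of -0.24 before PHx with none called. They ranged from -0.47 for miR-199a-3p to 0.24 for miR-145. Their summed scaled signal on slide 1 was 513 to 587 in EtOH and 619 to 689 in CHO, again with no overlap. With scaling to all probes, quantile normalization or the authors' values the sums overlapped. MiR-143 was called lower on slide 1 (lost in 3 of the 6 other ways), as were 17.9% of all tested miRNAs. Taken singly, 33.6% of all tested miRNAs did not overlap between diets on slide 1. Of the leukocyte miRNAs 3 of the 4 on the array were tested. MiR-142-3p was called lower in EtOH before PHx (-0.50, limma adjusted p 0.0435, lost in 4 of the 6 other ways). It stood at 0.14 after normexp with 1 background value for each array and at 0.38 after the planned normexp. MiR-223, a miRNA of neutrophils, was called higher at 6, 12 and 24 h (0.67, 0.92 and 0.60), calls lost in 5, 2 and 5 of the 6 other ways. At those times 4.48%, 5.97% and 13.4% of all tested miRNAs were called. MiR-142-3p (-0.16, -0.10 and 0.08) and miR-150 (0.03, -0.07 and -0.37) were not called at them. The leukocyte list medians were 0.03, -0.07 and 0.08, against 0.07, 0.06 and 0.02 over all tested miRNAs. The summed scaled signal of the leukocyte miRNAs on slide 1 was 147 to 179 in EtOH and 164 to 225 in CHO and overlapped. The erythroid pair on the array was not called in any of these comparisons, and its summed scaled signal on slide 1 was 629 to 1210 in EtOH and 528 to 1025 in CHO. The part of any of these in the values of miR-126 was not tested.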

How the data were processed

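Each of the 15 deposited scanner files gives linear spot intensities from which Agilent Feature Extraction had taken off local background (version 10.5.1.1 per the file headers, 10.7.3.1 in the submitters' processing notes). The table of log2 values that the authors deposited comes without a stated method, scale or centring. Spots marked as outliers were dropped. Each probe's mean was divided by its array's 75th percentile (taken over 185 probes detected everywhere), multiplied by the mean of those percentiles, floored at 9.61 and logged. The brightest probe stood for a miRNA. One limma 3.58.1 fit (R 4.3.3; checked on simulated data) over 15 arrays had a term per time and a diet difference on either side of PHx. Benjamini-Hochberg adjustment ran over 134 miRNAs, and an adjusted p under 0.05 was a call. The strand ratio was compared with exact permutation tests. Named were both strands, the 5 tested miRNAs most correlated with each, the endothelial-associated list, miR-122, and list members called. Members and lists were chosen with earlier results of these data known. Replicates are pools, not animals, and their number limits the precision. A pool's arrays before and after surgery are paired by the labels' animal identifiers, and their deviations from the group means correlated at -0.23 to 0.49 over miRNAs, above 0.1 in 6 of 7 pools.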

Additional observations from a re-analysis of the deposited data

How the results depend on the processing

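Of 543 alternative values over 19 results (the diet differences by slide aside), 471 kept their direction and their side of the threshold, 68 uncalled values changed sign, and 4 became called. Called were the diet difference before PHx without scaling (-0.71 for miR-126 and -0.77 for miR-126*, with a median over all tested miRNAs of -0.53) and the miR-126 diet difference after PHx within slide 1 (-0.24, also with the pool as random replicate block). The cause of the sign changes was not tested. Scaled to the 75th percentile of all probes, miR-126 stood at 0.14 for diet after PHx, -0.058 for the mean over times, -0.0016 at 1 h, -0.17 at 12 h, -0.0081 for diet on slide 1 (no longer called) and 0.057 on slide 2. MiR-126* then stood at 0.12 for diet after PHx, -0.035 for the mean over times, -0.20 at 12 h and 0.039 for diet on slide 2. With quantile normalization, miR-126 stood at -0.058 for diet after minus before, -0.18 on slide 1 (not called) and 0.0079 on slide 2, and miR-126* at 0.043 for diet after PHx, -0.13 for the mean over times, -0.23 at 12 h and 0.016 on slide 2. With the authors' values, miR-126 stood at -0.014 for diet after minus before, -0.081 at 1 h and 0.094 on slide 2, miR-126* at -0.079 for the mean over times and -0.24 at 12 h, and the strand ratio at -0.097 for diet after PHx.

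Normexp as planned failed on 2 arrays, whose median corrected spot rose to 138 (EtOH before PHx replicate 3) and 688 (CHO at 24 h) against 59.9 to 69.9 elsewhere. It gave miR-126 0.14 for diet after PHx, -0.061 for the mean over times, -0.36 at 24 h, -0.21 on slide 1 (not called) and 0.19 on slide 2. It gave miR-126* 0.41 for diet before PHx, -0.90 for diet after minus before, -0.16 at 1 h, -0.20 at 12 h, 0.037 on slide 1 and 0.20 for slide 1 minus slide 2, and the ratio -0.65 for diet before PHx and -0.27 for the mean over times. A form of normexp with a single background per array, chosen after seeing the data, gave miR-126 -0.21 on slide 1 (not called), miR-126* 0.18 for diet before PHx, -0.049 for the mean over times, -0.20 for diet after minus before, -0.043 at 1 h, -0.089 at 12 h, 0.024 on slide 1 and 0.14 on slide 2, and the ratio -0.37 for diet before and -0.068 for diet after PHx. Its offset of 50 is about as large as the raw signal of miR-126*. Without scaling, miR-126 on slide 1 was -0.46 and not called. Total signal per miRNA gave miR-126 -0.055 at 24 h, and the mean of all probes gave it -0.015 at 1 h. MiR-126* was called on slide 1 with the mean of all probes (-0.30) and with the median over spots (-0.29).

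Within slide 1, miR-126 stood at -0.054 and miR-126* at -0.18 for diet after minus before, and miR-126* at -0.048 for the mean over times. Within slide 2, miR-126 stood at 0.029 and miR-126* at 0.12 for diet after PHx, and miR-126 at -0.00072 at 12 h. With the pool as replicate block, miR-126 stood at -0.028 at 12 h, and miR-126* at -0.015 for the mean over times, -0.018 for diet after minus before and -0.064 at 24 h. With each set of pair-fed pools taken as a replicate block, diet before PHx was -0.19 for miR-126 and -0.22 for miR-126*. None of the values in those blocked fits was called. Pool blocks for the slide results were added after seeing the data, and the random replicate block kept the miR-126 call on slide 1 and made miR-126* called (-0.30). With 1 mean per pool neither was called, and miR-126* stood at 0.026 on slide 2. With each array left out in turn, miR-126 ranged from -0.21 to -0.15 for diet before PHx, -0.16 to -0.059 for diet after PHx, -0.0036 to 0.049 for mean over times after PHx, 0.020 to 0.12 for diet after minus diet before, -0.075 to 0.12 at 1 h, -0.13 to 0.038 at 6 h, -0.067 to 0.14 at 12 h and 0.0022 to 0.15 at 24 h. MiR-126* ranged from -0.35 to -0.17 for diet before PHx, -0.23 to -0.050 for diet after PHx, -0.0038 to 0.10 for mean over times after PHx, 0.0032 to 0.21 for diet after minus diet before, -0.020 to 0.31 at 1 h, -0.35 to -0.013 at 6 h, -0.13 to 0.15 at 12 h and 0.012 to 0.41 at 24 h. The strand ratio ranged from -0.018 to 0.18 for diet before PHx, -0.014 to 0.090 for diet after PHx and -0.017 to 0.036 for mean over times after PHx. None of these was called. On slide 1 miR-126 ranged from -0.23 to -0.20, called in 10 of 15 omissions, and miR-126* from -0.38 to -0.25, called in 3. On slide 2 miR-126 ranged from -0.077 to 0.029 and miR-126* from -0.15 to 0.12, the upper values without EtOH before PHx replicate 3.

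For diet before PHx, calls over all tested miRNAs numbered 21 (4 higher, 17 lower), but 2 with the percentile over all probes (1 and 1), 9 with quantile normalization (4 and 5), 76 without scaling (0 and 76), 14 with the authors' values (7 and 7), 8 with the added normexp (5 and 3) and 0 with the planned normexp. On slide 1 they numbered 39 (15 higher, 24 lower; 19 to 53 with an array left out), and 22 (18 and 4), 25 (14 and 11), 3 (0 and 3), 37 (19 and 18), 7 (4 and 3) and 0 in the same order. For diet after PHx they numbered 10, and 1 to 33 with an array left out.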
